A study of Rattus norvegicus with 31 samples.

Results

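The genes followed here in rat liver mark resident liver macrophages (Kupffer cells) or macrophages in general. They were Cd68, Cd163, Marco, Clec4f, Vsig4, Csf1r, C1qa, C1qb, C1qc and Cd5l. These 10 genes were chosen by name, and all 10 were present among the 26312 genes of the count table and among the 19904 genes that could be tested. RNA-Seq had been performed on whole liver of 31 young adult female Wistar rats (Crl:WI), each gavaged daily for 28 days with the vehicle carboxymethyl-cellulose alone or with 1 or 2 pesticides in it. The 8 control rats received only the vehicle. The single compounds were thiacloprid (THI) at 108 mg/kg bw/day in 4 rats, imazalil (IMZ) at 93 mg/kg bw/day in 4 rats and clothianidin (CTD) at 288 mg/kg bw/day in 3 rats. The paper marks this CTD group as having had at least 1 rat killed when moribund. Each binary mixture was given to 4 rats. In the same unit, THI + IMZ combined 54 with 46, THI + CTD combined 54 with 134, and IMZ + CTD combined 46 with 135, in the order of the names. THI and CTD are neonicotinoid insecticides and IMZ is an azole fungicide. As their doses differ, the changes after THI and CTD are given side by side.

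Kupffer cells are the macrophages that live in the sinusoids of the liver, where they take up particles, microbes and ageing red blood cells from the portal blood. Their survival depends on signals through the receptor that Csf1r encodes. In rodents, Clec4f, Vsig4, Marco and Cd5l set them apart from monocytes and from most macrophages of other organs, whereas Cd68, Csf1r and the C1q genes are shared by macrophages of many tissues. The C1q proteins start the classical complement cascade, and macrophages are a main source of them.

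Library totals ranged from 31.8 M to 101 M counts, and the median was 60.5 M for control libraries and 40.2 M for treated ones. Levels are given as CPM, the counts of a gene per 1 M counts of the library, with library totals scaled by the trimmed mean of M-values. The lowest count of any member in any library was 147, for Marco in THI + IMZ rat 3, so that counting error was small beside the spread between rats. All 4 markers that define Kupffer cells were thus counted in every library, whereas the summed level over the 8 neutrophil markers stayed between 0.154 and 0.943 CPM and that over the 5 B and plasma cell markers between 0.0308 and 0.801 CPM. CPM is relative to the RNA of the whole liver sample. Fewer macrophages, less RNA of these genes per macrophage and more RNA from other cells therefore cannot be told apart. One control library, that of rat 3, was highest among the controls for each of the 10 members, and counts of called members are given with and without it where it changes them.

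The 3 C1q genes lie next to each other on rat chromosome 5 in the order C1qb, C1qc, C1qa. Start regions are shown for members called lower in CTD (C1qa, C1qb and Cd68) and for a member not called there (Cd5l). The 250 bases before each start are printed as listed by RefSeq on the build GRCr8. They run from 5′ to 3′ on the strand of the gene. The counts themselves were made on the older build Rnor_5.0. Capitals mark GAGGAA or its reverse TTCCTC, a form of the site bound by PU.1, the factor that directs macrophage identity. Other forms of this site were not searched for. C1qa is on the minus strand at chr5:154419934-154420183, C1qb on the minus strand at chr5:154407828-154408077, Cd68 on the minus strand at chr10:54882442-54882691 and Cd5l on the plus strand at chr2:175088665-175088914.
C1qa: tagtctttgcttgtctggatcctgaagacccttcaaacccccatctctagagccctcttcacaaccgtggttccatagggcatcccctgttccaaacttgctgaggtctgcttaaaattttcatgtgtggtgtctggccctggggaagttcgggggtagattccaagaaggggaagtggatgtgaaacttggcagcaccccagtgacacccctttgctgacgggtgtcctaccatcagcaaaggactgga
C1qb: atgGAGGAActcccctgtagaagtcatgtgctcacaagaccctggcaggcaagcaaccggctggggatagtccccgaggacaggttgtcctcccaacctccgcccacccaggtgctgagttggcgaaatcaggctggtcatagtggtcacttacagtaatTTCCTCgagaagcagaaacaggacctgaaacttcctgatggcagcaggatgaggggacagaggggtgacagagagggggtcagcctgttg
Cd68: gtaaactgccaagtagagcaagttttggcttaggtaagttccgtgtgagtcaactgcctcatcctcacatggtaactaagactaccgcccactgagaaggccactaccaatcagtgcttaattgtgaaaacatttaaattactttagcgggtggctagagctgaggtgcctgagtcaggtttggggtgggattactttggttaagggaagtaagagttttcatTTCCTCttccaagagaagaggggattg
Cd5l: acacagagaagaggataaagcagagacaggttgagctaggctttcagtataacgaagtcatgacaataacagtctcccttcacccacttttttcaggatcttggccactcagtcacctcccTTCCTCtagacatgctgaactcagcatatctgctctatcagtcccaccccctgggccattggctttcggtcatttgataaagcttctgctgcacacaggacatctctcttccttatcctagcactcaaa

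The start regions of 9 of the 10 members were listed. GAGGAA was found on either strand in 5 of these 9 (Cd68, Marco, Csf1r, C1qb and Cd5l), or 55.6%, and in 23.3% of all 33469 start regions of the same length. It stood 247 and 90 bases before the start of C1qb, 27 bases before that of Cd68 and 129 bases before that of Cd5l, and was not in the window of C1qa. TGANTCA, the site of AP-1 factors, occurred in 1 of the 9 (Cd68, with 2 matches) and in 6.34% of all start regions. CACGTG, the E-box of the MITF and TFE family, occurred in 0 of the 9 and in 5.59% of all. No match of one motif overlapped a match of another. These matches describe the letters only. Genes with and without GAGGAA were found both among those that fell and among those that did not pass the test in the comparisons below.

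Genes that macrophages of many tissues share were called lower after CTD. Whether they changed more than the resident markers was not tested. Of the latter, Clec4f had a log2-fold change as low as that of Csf1r (below), as did Cd163, which was grouped with the resident markers. Cd68, which encodes a lysosomal membrane protein of phagocytes, was the member with the lowest log2-fold change. In the controls Cd68 ran from 9.47 to 17.9 CPM with a median of 14.4, and in the 3 CTD rats it was 10.5, 9.04 and 6.64 CPM. CTD rats 2 and 3 were below every control, while CTD rat 1 was within the range of the controls. The log2-fold change of Cd68 was -0.67 ± 0.16 (SE, n = 3 against 8), with an adjusted p of 0.0053 from edgeR's quasi-likelihood test.

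The 3 C1q genes, which encode the chains of the first complement component, fell together in CTD. C1qa was between 70.9 and 114 CPM in the controls, with a median of 91.6, and at 72.8, 51.3 and 60 CPM in the CTD rats. C1qb was between 50.9 and 80.1 CPM in the controls, with a median of 63.7, and at 51.3, 35.7 and 41.1 CPM in CTD. C1qc was between 65.6 and 102 CPM in the controls, with a median of 80.6, and at 68.7, 49.6 and 58.4 CPM in CTD. For each of the 3 genes, CTD rats 2 and 3 lay below all controls and rat 1 lay at the low end of them. The log2-fold changes were -0.54 ± 0.15 for C1qa (adjusted p = 0.011), -0.57 ± 0.14 for C1qb (adjusted p = 0.006) and -0.44 ± 0.13 for C1qc (adjusted p = 0.02). Csf1r, the receptor for the macrophage growth factors CSF1 and IL-34, was at 59, 42 and 50.5 CPM in CTD. It fell by 0.39 on the log2 scale with an adjusted p of 0.044, from a control mean of 66 ± 11.4 CPM (SD, n = 8) to 50.5 ± 8.49 CPM (SD, n = 3).

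Thus 5 of 10 members were called lower in CTD, beside 6.03% of all genes tested that were called lower and 6.62% that were called higher. The median log2-fold change of the 10 members was -0.41, against -0.07 over all genes. The count was 1 (Cd68) without CTD rat 2 and 2 (C1qa and C1qb) without CTD rat 3, and the call of Csf1r held in 4 of the 11 fits that left out 1 rat, being lost without CTD rat 2 or 3 or without control rat 3, 5, 6, 7 or 8. CTD livers also had more counts of red blood cell genes, 5 of 5 of which rose (median log2-fold change 2.34, summed level 155 to 191 CPM against 20.2 to 64.4 CPM in the controls); their part in the result was not tested.

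The 5 other members (Cd163, Clec4f, Vsig4, Cd5l and Marco) did not pass the test in CTD, and their log2-fold changes had both signs. Cd163, the scavenger receptor for haptoglobin and hemoglobin, was at 69.8, 39.5 and 43.3 CPM in CTD against 56.3 to 82.6 CPM in the controls, and Clec4f, a galactose-binding C-type lectin, was at 136, 121 and 155 CPM against 135 to 224 CPM. CTD rats 2 and 3 were below all controls for Cd163, and CTD rat 2 was below them for Clec4f. Cd163 had a log2-fold change of -0.43 ± 0.15 (adjusted p = 0.059) and Clec4f one of -0.39 ± 0.17 (adjusted p = 0.14). Cd163 was called lower without control rat 1, 2 or 4, without CTD rat 1, after thinning to the smallest library and by the Wald test of DESeq2. Vsig4, the complement receptor that clears C3b-coated particles, was at 29.4, 22.2 and 29.7 CPM in CTD and between 23.4 and 38.5 CPM in the controls, with a log2-fold change of -0.15 and an interval from -0.47 to 0.17. Cd5l, a secreted protein that protects macrophages from cell death, was at 134, 56.6 and 85.3 CPM in CTD against 53.5 to 120 CPM in the controls, with a log2-fold change of 0.24 and an interval from -0.28 to 0.76. CTD rat 1 was above all controls for Cd5l and Marco, and CTD rat 2 was below all controls for Marco. Marco, a scavenger receptor for unopsonized particles and bacteria, was at 46.8, 13.5 and 17.9 CPM in the 3 CTD rats, and its interval ran from -0.75 to 1.01.

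**Figure D1:**
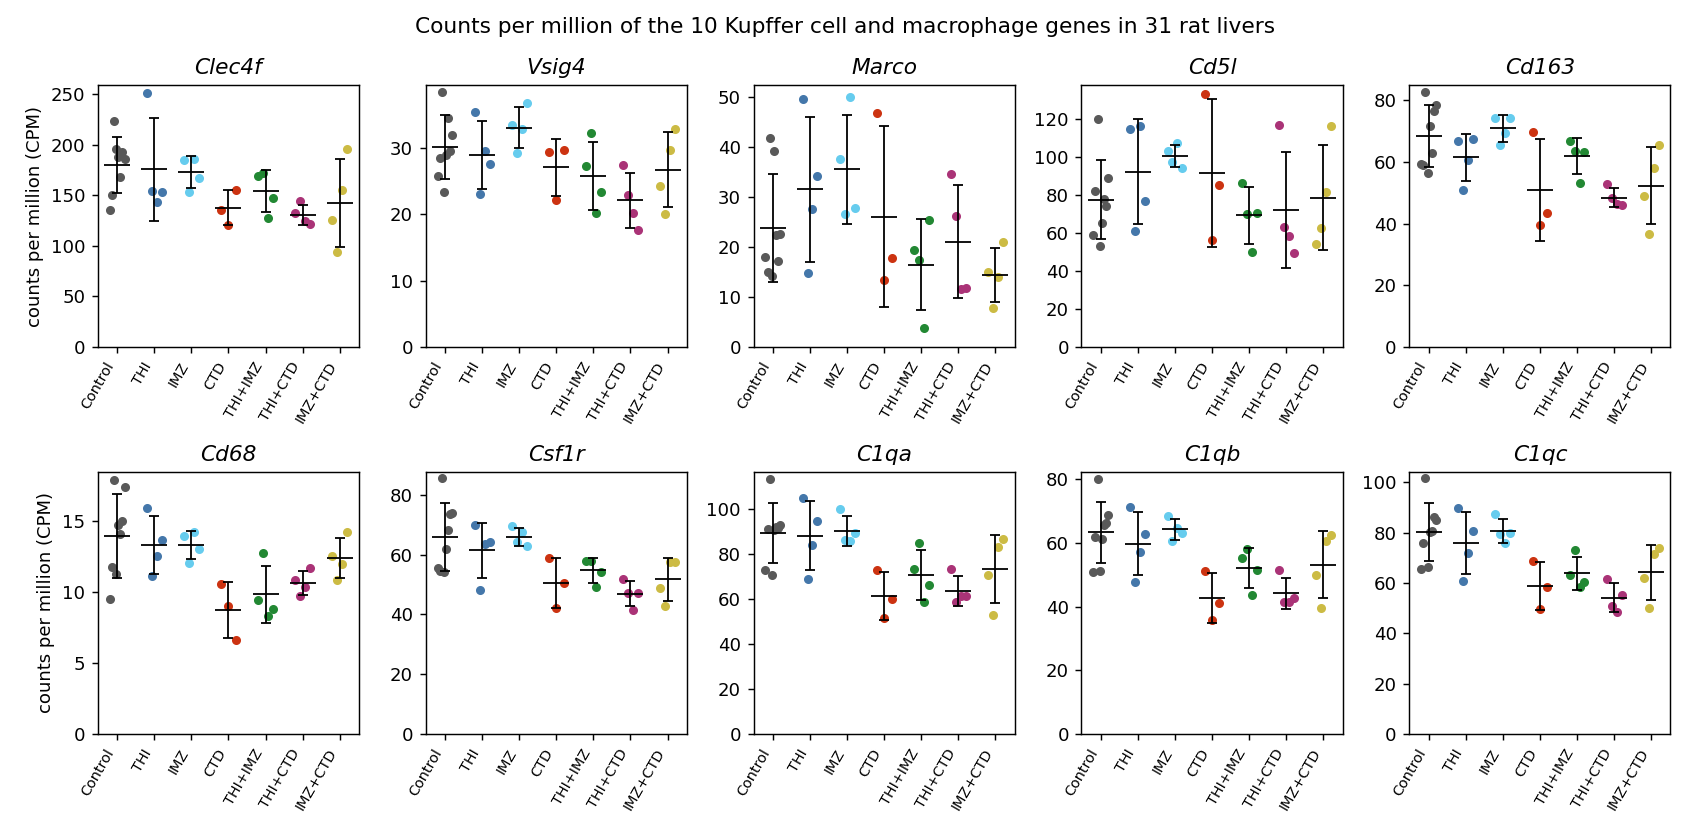
Level of each of the 10 genes in CPM (vertical axes, from 0) in every rat, by treatment group (horizontal axes). Points are rats and bars give the mean ± SD of 8 controls, 3 CTD rats or 4 rats of each other group. The C1q genes, Csf1r and Cd163 have their lowest means in CTD and THI + CTD, and Marco runs from 3.81 to 50.1 CPM.

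In the mixture of THI and CTD, 5 members were called lower, namely Csf1r, the 3 C1q genes and Cd163. C1qc was at 61.6, 50.9, 48.5 and 55.4 CPM, all below the lowest control at 65.6 CPM. Csf1r was at 51.8, 47.2, 41.6 and 47.2 CPM, all below the lowest control at 54.3 CPM. Cd163 was at 52.8, 48.3, 46.4 and 46.2 CPM, all below the lowest control at 56.3 CPM. How many of all genes tested had all 4 THI + CTD rats below every control was not counted. For C1qa and C1qb, 3 of 4 rats were below all controls, and rat 1 was within their range.

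The log2-fold changes in THI + CTD were -0.57 ± 0.12 for C1qc (adjusted p = 0.0034), -0.52 ± 0.13 for C1qb (adjusted p = 0.012), -0.49 ± 0.12 for Csf1r (adjusted p = 0.01), -0.49 ± 0.13 for C1qa (adjusted p = 0.023) and -0.50 ± 0.14 for Cd163 (adjusted p = 0.028). All 10 members had a log2-fold change below 0, with a median of -0.48 against -0.03 over all genes tested. The 5 of 10 called lower stand beside 1.71% of all genes called lower and 2.67% called higher. Among the others, Clec4f was between 121 and 144 CPM with 3 of 4 rats below all controls (log2-fold change -0.46 ± 0.15, adjusted p = 0.081), and Vsig4 was between 17.7 and 27.5 CPM, also with 3 of 4 rats below all controls (-0.45 ± 0.14, adjusted p = 0.072). Cd68 was between 9.70 and 11.7 CPM, within the range of the controls (-0.39 ± 0.14, adjusted p = 0.13). C1qc kept its call in 12 of 12 fits without 1 rat, while the count of members called was 1 without THI + CTD rat 3, 2 without rat 2, 3 without rat 4 and 3 without control rat 3. T and NK cell markers were low in the same livers, at a summed 4.13 to 6.18 CPM over 13 genes against 7.23 to 9.73 CPM in the controls, and red blood cell genes reached 215 CPM in THI + CTD rat 3; their part in the result was not tested.

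In THI + IMZ and IMZ + CTD, 0 of 10 members passed edgeR's test, although 5 of 10 in each had an unadjusted p under 0.05. The latter count depended on single rats: in THI + IMZ it was 2 without THI + IMZ rat 3 and 3 without THI + IMZ rat 4 or control rat 3, and in IMZ + CTD it was 1 without IMZ + CTD rat 2 and 3 without IMZ + CTD rat 1 or control rat 3. All genes called made up 0.332% lower and 0.849% higher in THI + IMZ, and 0.452% lower and 1% higher in IMZ + CTD. Of the 19904 genes tested by edgeR, 2202 in THI + IMZ and 2557 in IMZ + CTD had an unadjusted p under 0.05. In THI + IMZ, Cd68 was at 9.46, 12.8, 8.32 and 8.81 CPM, with 3 of 4 rats below the lowest control at 9.47 CPM (log2-fold change -0.50 ± 0.14, adjusted p = 0.088), and the Wald test of DESeq2 called it, as the 1 member of 10. edgeR's test also called it without control rat 1 and without THI + IMZ rat 2. C1qc had a log2-fold change of -0.33 in THI + IMZ and of -0.32 in IMZ + CTD, with adjusted p of 0.21 and 0.19. The Wald test called 0 of 10 in IMZ + CTD. The median of the members was -0.27 in THI + IMZ, against -0.02 over all genes, and -0.30 in IMZ + CTD, against -0.03.

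The 4 IMZ + CTD rats differed widely from each other. C1qa was at 70.8, 52.9, 83 and 86.6 CPM and Clec4f at 125, 93.4, 155 and 196 CPM in rats 1 to 4. Rat 2 was the lowest of the 4 for C1qa and Clec4f, and rats 3 and 4 were within the range of the controls for both. In THI + IMZ, rat 3 had 3.81 CPM of Marco, the lowest level of that gene in any library, beside 19.3, 17.3 and 25.3 CPM in the other three.

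After THI or IMZ alone, 0 of 10 members passed edgeR's test, 0 of 10 had an unadjusted p under 0.05 (1 of 10 after IMZ without control rat 3), and the Wald test of DESeq2 also called 0 of 10. Over all genes, 0.166% were called lower and 0.377% higher after THI, and 0.0603% lower and 0.191% higher after IMZ. An unadjusted p under 0.05 in edgeR's test was reached by 1728 of 19904 genes after THI and by 1608 after IMZ. C1qa was at 105, 68.9, 84.1 and 94.7 CPM in the 4 THI rats and at 100, 86.4, 85.7 and 89.6 CPM in the 4 IMZ rats. THI rat 2 was below the lowest control at 70.9 CPM and the other 7 rats were within the range of the controls. The intervals of the log2-fold change were narrow for the C1q genes, from -0.28 to 0.24 for C1qa after THI and from -0.24 to 0.28 after IMZ. The interval of Csf1r after IMZ ran from -0.23 to 0.23, around a log2-fold change of 0.00 ± 0.11. Marco was at 49.5, 14.7, 27.6 and 34.2 CPM after THI and at 37.5, 26.6, 50.1 and 27.8 CPM after IMZ, against 14.3 to 41.8 CPM in the controls. THI rat 1 and IMZ rat 3 were above all controls. The intervals of Marco were wide, from -0.39 to 1.19 after THI and from -0.21 to 1.36 after IMZ. Cd5l was between 94.5 and 107 CPM in the 4 IMZ rats, within the controls' range of 53.5 to 120 CPM, with a log2-fold change of 0.37 and an interval from -0.09 to 0.84. The median over the members was -0.06 after THI and 0.02 after IMZ, against -0.01 and -0.02 over all genes.

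**Figure D2:**
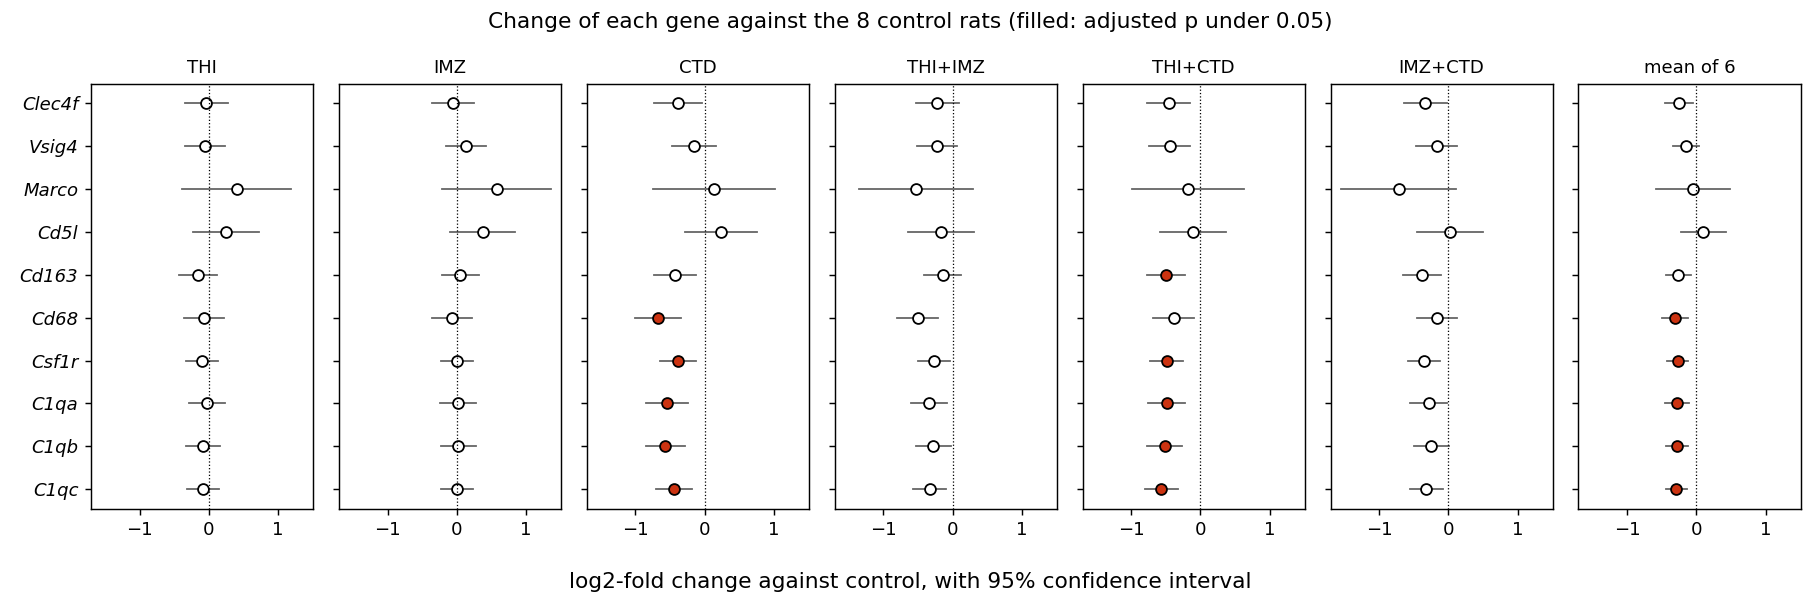
Log2-fold change against the 8 controls (horizontal axes) with 95% confidence intervals (lines) for each gene and treatment, and for the mean of the 6 treatments. Filled points had an adjusted p under 0.05. Cd68, Csf1r and the C1q genes are filled in CTD, Cd163, Csf1r and the C1q genes in THI + CTD, and none in THI, IMZ, THI + IMZ or IMZ + CTD.

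The 6 comparisons share the same 8 controls, so changes seen in several of them were tested in 1 contrast of the mean of the 6 treatments against control. In it, 5 of 10 members were called lower, beside 2.87% of all genes lower and 2.87% higher. These were C1qc (log2-fold change -0.29 ± 0.08, adjusted p = 0.017), Csf1r (-0.27 ± 0.08, adjusted p = 0.03), C1qb (-0.28 ± 0.08, adjusted p = 0.035), Cd68 (-0.31 ± 0.09, adjusted p = 0.042) and C1qa (-0.28 ± 0.08, adjusted p = 0.046). None of the 5 other members passed, from Cd163 at -0.26 ± 0.09 (adjusted p = 0.076, called without CTD rat 1 or IMZ + CTD rat 4) to Cd5l at 0.10 ± 0.16 (adjusted p = 0.76). The median was -0.26 for the members and -0.04 for all genes. This contrast depended on single rats: 0 members were called without control rat 3, 1 (C1qc) without control rat 6, 7 or 8, and 2 without control rat 5. The count was 3 without THI rat 2 or 3, IMZ rat 2 or 4, CTD rat 2 or 3, THI + IMZ rat 1, 3 or 4, THI + CTD rat 2 or 3, or IMZ + CTD rat 2.

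Each mixture was also set against the sum of the log2-fold changes of its compounds, weighted by dose (0.5 for THI and IMZ, 0.47 for CTD). The question was whether the members changed more or less than that sum. This does not test dose addition, which the paper examined with response curves over several doses. edgeR's test called 0 of 10 members in each of the 3 mixtures, as did the Wald test of DESeq2, while 4 members in THI + IMZ, 3 in THI + CTD and 1 in IMZ + CTD had an unadjusted p under 0.05. In THI + IMZ the last count was 1 without THI + IMZ rat 3, 8 without THI rat 2 and 6 without control rat 3 or THI + IMZ rat 2. In THI + CTD it was 1 without THI rat 1 or THI + CTD rat 3 or 4, 2 without CTD rat 1 or 3 or THI + CTD rat 2, 5 without CTD rat 2 and 6 without THI + CTD rat 1. In IMZ + CTD it was 0 without CTD rat 1 or IMZ + CTD rat 2, 2 without CTD rat 2 and 4 without IMZ + CTD rat 4. Over all genes, the shares called lower and higher were 0.0151% and 0% in THI + IMZ, 0.0754% and 0.211% in THI + CTD, and 0.462% and 0.693% in IMZ + CTD. The difference from the sum was -0.32 (interval -0.56 to -0.08, adjusted p = 0.34) for C1qc in THI + CTD and 0.00 (interval -0.25 to 0.26) for C1qb in IMZ + CTD. For Marco it was -1.02 in THI + IMZ and -1.07 in IMZ + CTD, with adjusted p of 0.67 and 0.22.

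The 7 groups were ranked by their mean level for each member. Of the 60 pairs of groups that follow each other in the order of a member, none passed edgeR's test, and the smallest unadjusted p was 0.081. Groups next to each other in such an order differ least by construction, so this cannot show whether the series had steps. CTD had the lowest mean for Cd68, C1qa and C1qb, and THI + CTD the lowest for C1qc, Csf1r, Cd163, Clec4f and Vsig4. Marco was lowest in IMZ + CTD and Cd5l in THI + IMZ.

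Members differed in how much they varied between rats of one group. The SD of log2 CPM within groups was 0.197 for Csf1r and for C1qc, 0.215 for C1qb, 0.225 for C1qa, 0.234 for Cd163, 0.246 for Cd68, 0.249 for Vsig4 and 0.265 for Clec4f. It was 0.42 for Cd5l and 0.759 for Marco. Between the lowest and the highest of the 31 libraries, Marco ranged 13.2-fold and Csf1r 2.06-fold. Group means accounted for 59.8% of the variance of log2 CPM for C1qc, 31% for Marco and 20.2% for Cd5l. These shares are not corrected for the number of groups. The means of 7 groups take up part of the variance of 31 rats even where treatments do not differ.

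The levels of the members varied together between rats given the same treatment. With the group means removed, all 45 pairs of members correlated over the 31 rats, with Pearson's r from 0.49 to 0.98 and a median of 0.74. All 45 passed a permutation test within groups (100000 permutations, two-sided, largest adjusted p = 0.013 over the 45 pairs), and so did Spearman's rho, which ran from 0.42 to 0.96 (largest adjusted p = 0.041). The points of one rat share a library, its scaling and its liver sample. The highest values were those of C1qa and C1qb (r = 0.98, rho = 0.95, permutation p = 1e-05, the smallest that this number of permutations can give), C1qa and C1qc (r = 0.97, rho = 0.96) and C1qb and C1qc (r = 0.96, rho = 0.93). Without the 2 rats farthest from the median of C1qa, the first of these r was 0.97. Csf1r followed the C1q genes with r of 0.86 to 0.92. The lowest values were those of Cd68 with Cd5l (r = 0.49), Clec4f with Cd5l (r = 0.52) and Cd68 with Marco (r = 0.53), which were 0.50, 0.50 and 0.57 without the 2 farthest rats. Among the 8 controls alone, r ran from 0.43 to 0.98, and 27 of 45 pairs passed an exact permutation test after adjustment.

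**Figure D3:**
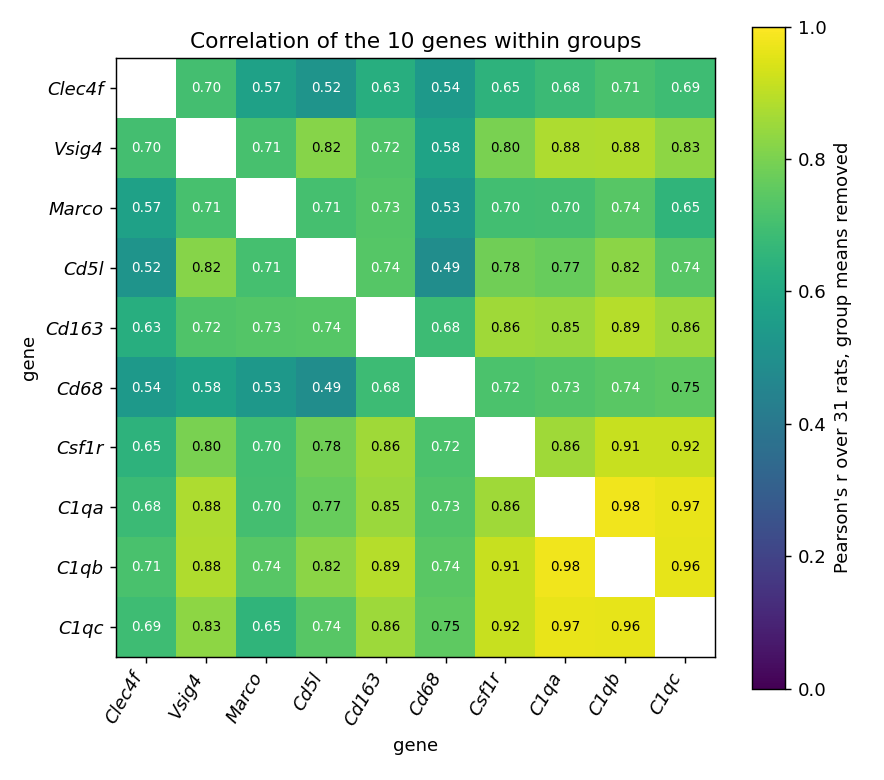
Pearson's r (color and number) between each pair of the 10 genes over 31 rats, computed on log2 CPM after subtracting the mean of each rat's group. The 3 pairs of C1q genes are highest, at 0.96 to 0.98, and Cd68 with Cd5l is lowest, at 0.49.

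Within a library, the C1q genes kept nearly fixed proportions. The ratio of C1qb to C1qa counts was 0.707 ± 0.0227 in the controls (SD, n = 8) and between 0.664 and 0.777 in each of the 31 libraries, while the level of C1qa itself ranged 2.21-fold. The mean ratio was 0.695 ± 0.00956 in CTD (n = 3) and 0.694 ± 0.0129 in THI + CTD (n = 4). The ratio of C1qc to C1qa was 0.897 ± 0.0344 in the controls and 0.961 ± 0.0160 in CTD, where it was 0.944 to 0.974 and above the highest control at 0.939.

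The ratios of the other members to C1qa were compared as well. C1qa itself was called lower in CTD and THI + CTD (log2-fold changes of -0.54 and -0.49). There, the ratio is raised for any gene that fell less than C1qa. How many of all genes had ratios above every control was not counted. Vsig4 to C1qa was 0.312 to 0.375 in the controls and 0.404 to 0.496 in CTD, and Cd5l to C1qa was 0.719 to 1.06 in the controls and 1.10 to 1.83 in CTD. In both, all 3 CTD rats were above all 8 controls. The same held for Csf1r to C1qa, at 0.810 to 0.842 in CTD and at most 0.801 in the controls, with a difference of 0.16 on the log2 scale and an exact permutation p of 0.0727. For Clec4f, Cd163 and Marco the ratios overlapped, with 0, 1 and 1 of the 3 CTD rats above all controls. The differences of the first pair were 0.40 for Vsig4 and 0.74 for Cd5l on the log2 scale, each with an exact permutation p of 0.0061, the smallest that 3 rats against 8 can give. Over the 9 ratios and 6 treatments, that is 54 tests chosen after the data had been seen, 0 passed after adjustment, with an adjusted p of 0.145 for Vsig4 and Cd5l in CTD. The mean log2 ratio of Cd5l to C1qa was also above that of the controls in each other treatment. These differences ran from 0.19 in THI + IMZ to 0.39 in IMZ (exact permutation p = 0.0081, adjusted p = 0.145 for IMZ). The summed level of the 5 resident markers (Clec4f, Vsig4, Marco, Cd5l and Cd163) was 253 to 415 CPM in CTD and 297 to 507 CPM in the controls. Cd163 was grouped with them here, though it is not among the markers named above as setting Kupffer cells apart. That of the 5 general genes (Cd68, Csf1r and the C1q genes) was 188 to 262 CPM in CTD and 254 to 399 CPM in the controls. The ratio of both sums was 1.35 to 1.58 in CTD, 1.13 to 1.47 in THI + CTD and 1.14 to 1.35 in the controls. In CTD the 5 general genes are the members called lower and the 5 resident markers those not called. The ratio of sums in CTD therefore largely restates these calls.

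**Figure D4:**
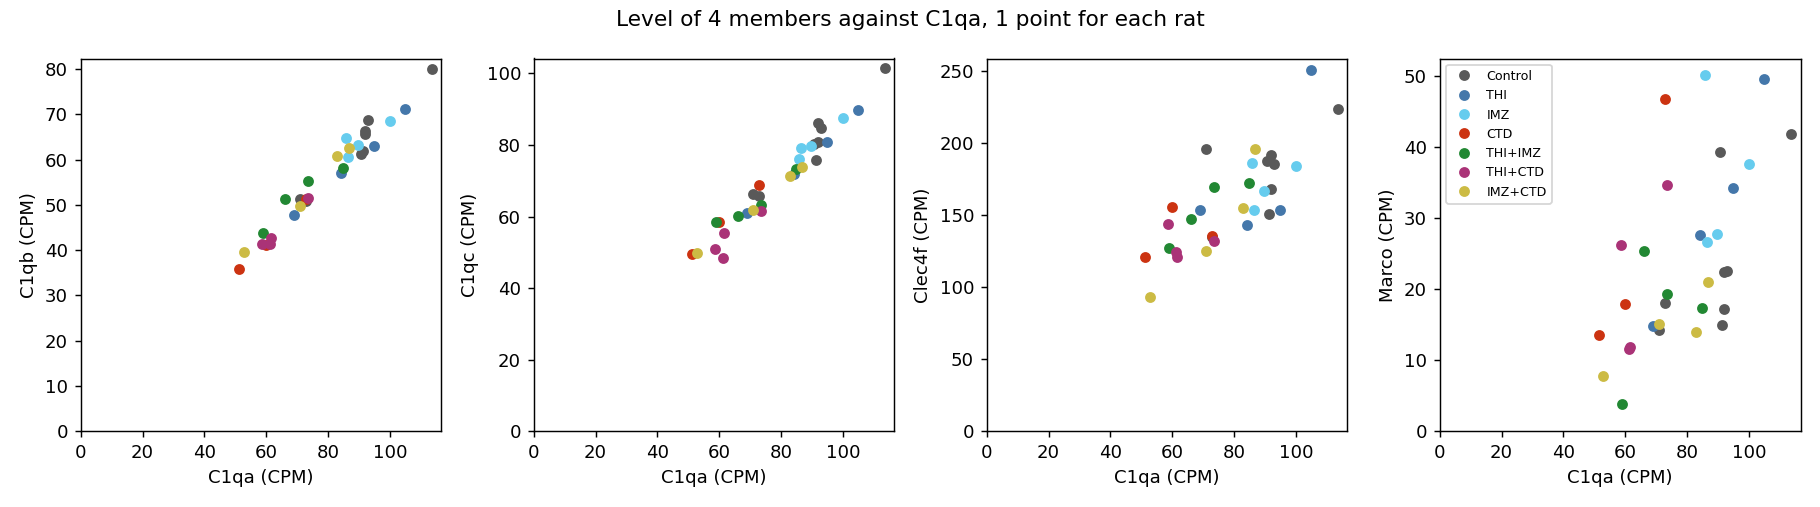
CPM of C1qb, C1qc, Clec4f and Marco (vertical axes) against CPM of C1qa (horizontal axes), with 1 point for each of the 31 rats, colored by group. C1qb and C1qc lie close to a line through 0 in all groups, with ratios of C1qb to C1qa from 0.664 to 0.777, while Marco scatters from 3.81 to 50.1 CPM.

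The genes whose levels over the 31 libraries were most like the mean z-score of the members, among 13160 other expressed genes, were Ctss (r = 0.91), which encodes cathepsin S of antigen-presenting cells, Cybb (r = 0.90), a subunit of the phagocyte NADPH oxidase, Emr1 (r = 0.89), which encodes the macrophage antigen F4/80, Prex1 (r = 0.89), a Rac exchange factor, and Ptgs1 (r = 0.89), a prostaglandin synthase. With the group means removed they were the chemokine gene Ccl6 (r = 0.92), Cybb (r = 0.91), Ctss (r = 0.87), AB124611 (r = 0.87) and Slc11a1 (r = 0.86), a metal transporter of phagosomes. The members themselves had r of 0.74 to 0.97 with their mean over the libraries. Of these genes, Ctss had a log2-fold change of -0.59 in THI + CTD (adjusted p = 0.043) and Prex1 one of -0.54 in CTD (adjusted p = 0.032), and Ccl6 was at -0.05 in CTD and -0.36 in THI + CTD (adjusted p of 0.9 and 0.28).

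Of 28 other genes of Kupffer cells and macrophages, 2 fell in CTD (Laptm5 at -0.52 and Slc40a1, the iron exporter ferroportin, at -0.54), 4 fell in THI + CTD (Mrc1, the mannose receptor, at -0.33, Cd4 at -0.56, Ctss at -0.59 and Lgmn at -0.37), 1 fell in IMZ + CTD (Siglec1, the sialic acid receptor of resident macrophages, at -0.997) and none rose. The 2 of 28 in CTD stand beside the 6.03% of all genes called lower there, and the 4 of 28 in THI + CTD beside 1.71%. The 1 of 28 in IMZ + CTD stands beside 0.452%. In the mean of the 6 treatments, Siglec1 (-0.55 ± 0.15, adjusted p = 0.025), Cd4 (-0.28 ± 0.08, adjusted p = 0.025) and Laptm5 (-0.27 ± 0.08, adjusted p = 0.046) fell. The median over the 28 was -0.21 in CTD and -0.37 in THI + CTD. Those of these genes that are named because they passed in a single treatment, and similar genes below, were chosen after their values were seen.

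Of 9 genes of recruited monocytes, none passed in any treatment. Their summed level was 5.74 to 13.8 CPM in CTD and 7.4 to 13.4 CPM in the controls, and the log2-fold changes in the mean of the 6 treatments were -0.40 for Ly6c and 0.34 for Cx3cr1 (adjusted p of 0.42 and 0.48).

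Among signals to macrophages, Tgfb1 (-0.79) and the Notch ligand Dll4 (-0.58) fell in CTD, as 2 of 8 ligands and cytokine receptors. None of the 8 passed in another treatment. Over all genes tested, 6.03% were called lower in CTD. Among 14 transcription factors of the macrophage programme, Irf8, which directs monocyte and macrophage development, fell by 0.82 in CTD (adjusted p = 0.00096), by 0.51 in THI + CTD (adjusted p = 0.04) and by 0.47 in the mean of the 6 treatments (adjusted p = 0.0017) on the log2 scale. In CTD, Rxra fell by 0.34 on the log2 scale, while Rbpj, the Notch effector, rose (0.48 ± 0.11, adjusted p = 0.0025).

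Among the partners of C1q and Vsig4 in the complement system, 5 of 17 fell in CTD and none rose, beside 6.03% of all genes called lower there. Serping1, the C1 inhibitor, had a log2-fold change of -1.45 ± 0.10 in CTD (adjusted p = 2.9e-11), and C4b, the next substrate of activated C1, one of -0.74 in CTD and -0.53 in THI + CTD. Itgb2, the shared chain of the complement receptors CR3 and CR4, fell in CTD (-0.46) and THI + CTD (-0.53). Most complement proteins other than C1q are made by hepatocytes, so that these counts are not macrophage levels alone. The remaining calls in CTD were Masp2 (-0.27) and Cd59 (-0.39), and the median of the list was -0.26 in CTD.

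Of 15 scavenger and clearance receptors, Lrp1, which hepatocytes and macrophages both express, fell in CTD (-1.11 ± 0.16, adjusted p = 1.9e-05) and in THI + CTD (-0.68 ± 0.14, adjusted p = 0.0042). Asgr1, a hepatocyte receptor, also fell in both (-0.56 and -0.48), Mrc1 fell in THI + CTD, and Scarb1 rose there (0.29). Stab1 did not pass in any treatment and was at -0.19 in the mean of the 6 (adjusted p = 0.092). Of 16 inflammatory products of macrophages, Nlrp3, the inflammasome sensor, fell in THI + CTD (-0.60) and IMZ + CTD (-0.72), and Tgfb1 fell in CTD. Il1b (-0.42, adjusted p = 0.11) and Ccl5 (-0.66, adjusted p = 0.13) did not pass in the mean of the 6 treatments. Of 14 lysosome genes, 4 fell in CTD, namely Npc2 (-0.61), Psap (-0.34), Npc1 (-0.43) and Hexa (-0.30), while Ctsd rose in THI + CTD (0.28) and Gaa in THI + IMZ (0.38). The calls in these lists stand beside 6.03% of all genes called lower in CTD and 1.71% in THI + CTD.

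Markers of the other liver cell types were read beside the members. Their counts stand beside 6.03% of all genes tested that were called lower in CTD and 1.71% in THI + CTD. Of 10 markers of sinusoidal endothelial cells, Kdr (-0.58) and Cdh5 (-0.44) fell in CTD and Kdr (-0.34) in THI + CTD, and the list's summed level was 320 to 417 CPM in CTD against 384 to 450 CPM in the controls. Of 9 stellate cell markers, 1 fell in CTD (Reln at -0.46) and 3 fell in THI + CTD (Hgf at -0.64, Colec11 at -0.28 and Reln at -0.47), while Rgs5 rose in IMZ (0.76) and THI + IMZ (0.92). Of 8 dendritic cell markers, 1 fell in CTD (Zbtb46 at -0.67), and of 13 T and NK cell markers 1 fell in THI + CTD (Trac at -0.62). None of the B and plasma cell markers passed in any comparison with control. Elane, a neutrophil gene with few counts, was called lower in the mean of the 6 treatments (adjusted p = 0.029) and no neutrophil marker passed in a single treatment. Of 12 hepatocyte markers, Ass1 (-0.58) and Tat (-0.93) fell in CTD, and Tat (-0.96) and Serpina1 (-0.43) in THI + CTD, while Apoa1 rose in THI + IMZ (0.85). Of the 5 red blood cell genes, Hbb had the highest log2-fold change in CTD (2.83 ± 0.48, adjusted p = 0.00011) and was the 1 that also rose in THI + CTD (1.59 ± 0.45, adjusted p = 0.037).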

How the data were processed

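RNA of 31 rat livers was sequenced from a stranded total RNA kit. Per the labels and the study's methods, the authors trimmed adapters, checked quality with FastQC 0.11.5, and used STAR 2.5.2b for alignment to Rnor_5.0 and for counting by gene; the strand setting of the counting is not given in the sources used here. The deposited count table holds raw counts per gene. The second deposited table holds a normalized signal, equal to the count divided by a DESeq2 size factor within a relative deviation of 5.3e-15, and was not used for tests. The normalized table holds the 19904 genes with at least 2 counts over all libraries.

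Counts were tested with edgeR 4.0.16 in R 4.3.3 (TMM, quasi-likelihood, older method), with 1 mean for each of the 7 groups, Benjamini-Hochberg adjustment over all genes tested and a threshold of 0.05. Intervals are 95% and SEs are on the log2 scale. Log2 CPM used a prior count of 2. Correlations and ratios were computed with NumPy 2.4.6 and SciPy 1.17.1. The alternatives were the size factors and Wald test of DESeq2 1.42.0, edgeR's newer method, filterByExpr and no filter, a replicate block, thinning to the smallest library, fits of only the groups compared, exact dose ratios and leaving out each rat; ratios to C1qa were tested after the data had been seen.

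Each column was assigned to its rat by the label. No 2 libraries of a group agreed within sampling noise. Named besides the members are, per list, the 3 genes with the smallest p in the mean of the 6 treatments (1 of them is not reported here), and 5 genes most like the members before and after removing group means. The members and lists were chosen with earlier results of these data known.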

Additional observations from a re-analysis of the deposited data

Results flagged for a closer look

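In 60 groups of members' levels, each of 4 or 8 rats, 2 held a rat far from the others by Dixon's test, where chance flags about 1 group in 20, or 3 groups. Clec4f was at 251 CPM in THI rat 1, beside 143 to 154 CPM in the other 3 THI rats. C1qb was at 51.5 CPM in THI + CTD rat 1, beside 41.3 to 42.6 CPM in the other 3 rats of that group, and the lowest control was at 50.9 CPM.

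Marco lay on opposite sides of the control mean in 2 groups. All 4 IMZ rats were above the mean of the controls (by 0.64 on the log2 CPM scale on average), and all 4 IMZ + CTD rats were below it (-0.69). The groups' means differed by 1.33, and this difference was not tested. Neither group passed edgeR's test against control for Marco (adjusted p = 0.74 for IMZ and 0.49 for IMZ + CTD).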

How the results depend on the processing

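Among the 15 calls of members, all lower, 98 of 115 refits under another setting kept the call, 17 lost it and 0 changed sign; leaving out 1 rat kept 196 of 270. With a replicate block, 1 member was called in CTD (C1qb), 1 in THI + CTD (C1qc) and 0 in the mean of the 6 treatments, beside 1571, 348 and 240 calls over all genes in place of 2518, 873 and 1143; the block changed no other count of called members. The members with an unadjusted p under 0.05 fell from 5 to 1 in THI + IMZ, from 5 to 2 in IMZ + CTD and from 7 to 3 in the mean of the 6 treatments. The labels do not say what the replicate numbers stand for, and this was not tested. Same-numbered rats of different groups had a median correlation of 0.018 over 78 pairs, 9 of them above 0.1. Rats with different numbers had a median of -0.0015 over 326 pairs, 23 of them above 0.1. Of 31 rats, 10 correlated best with a rat of their own number. The Wald test of DESeq2 called 1 member (Cd68) in THI + IMZ, and 6 in CTD and 7 in THI + CTD, with 3030 and 1386 calls over all genes. Thinning to the smallest library called 3 members in the mean of the 6 treatments and 5 in both CTD and THI + CTD, where in CTD Csf1r was lost and Cd163 gained. Leaving out 1 rat gave 1 to 6 members in CTD, 1 to 7 in THI + CTD, 0 to 1 in THI + IMZ and 0 to 6 in the mean of the 6 treatments. The 8 controls alone gave 27 of 45 correlated pairs, with fewer rats by construction, and leaving out the 2 farthest rats or using Spearman's rho kept 45. For members not called, 426 of 435 refits were the same, 6 passed the threshold and 3 changed sign; leaving out 1 rat, 698 of 750 were the same, 12 passed and 40 changed sign. The causes of the changes were not tested.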
